A study of Mus musculus with 9 samples.

Results

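The crystallin genes examined here were 9 genes of the α-, β- and γ-crystallin families (Cryaa, Cryab, Cryba1, Cryba2, Cryba4, Crybb1, Crybb2, Crybb3 and Crygs), chosen by gene symbol from the 55487 genes listed for a bulk RNA-seq experiment on whole mouse retina at postnatal day 21 (P21). All 9 were listed and all 9 passed the filter on low values, which left 21330 genes for testing. The experiment held 9 libraries of 3 genotypes on a C57 BL/6J background, 3 libraries per genotype, each made from the pooled retinas of 2 animals. The control genotype, Cre- (WT in the labels), lacked the Cre transgene and came from breeders that also lacked it. The tHet retinas carried 1 floxed and 1 intact copy of each of Tet1, Tet2 and Tet3 (loxp/+) with the Chx10::Cre-GFP transgene, and the Tet tcKO retinas carried 2 floxed copies of all 3 genes (loxp/loxp) with the same transgene. Tet1, Tet2 and Tet3 encode the TET dioxygenases, which oxidise 5-methylcytosine in DNA, and the Chx10::Cre-GFP transgene drives recombination in retinal progenitor cells. Because this transgene is mosaic, the Cre-positive animals were in-crossed to hold 2 functional copies of it, so a difference between Cre- and either Cre-positive genotype cannot be told apart from a difference between breeding lines.

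Crystallins are the abundant soluble proteins of the vertebrate lens. The α-crystallins are small heat shock proteins that act as chaperones, and Cryab is also expressed widely outside the lens, including in glia and muscle. The β- and γ-crystallins share a fold built of Greek key motifs and have their highest expression in lens fibre cells, where Maf and Sox factors, PAX6 and PROX1 regulate their genes, and transcripts of several of them have also been detected in retina. In bulk tissue, fewer cells of a type and less RNA per cell cannot be told apart, and dissected retina can hold traces of neighbouring tissue.

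The 9 genes lie at 7 places on 6 chromosomes of the mouse genome (mm10, annotated with GENCODE release M21). Cryba4 (chr5:112246493-112252518, minus strand) and Crybb1 (chr5:112255815-112269585, plus strand) start next to each other in opposite directions, and Crybb2 (chr5:113058258-113070117) and Crybb3 (chr5:113075839-113081584) follow each other on the minus strand. Cryaa lies at chr17:31677807-31681733, Cryba1 at chr11:77718615-77725283, Cryba2 at chr1:74889934-74893143 and Crygs at chr16:22805203-22811577. Cryab (chr9:50751325-50756636, plus strand) shares exonic bases with Hspb2 (chr9:50751078-50752354), a small heat shock protein gene on the opposite strand. Exons of Cryaa overlap the unnamed gene AC090881.2 on the opposite strand, and no exon of the other 7 genes overlaps another annotated gene. The strand setting of the counting step was not given in the sources used here, so reads of Cryab and Hspb2 in the shared bases may not be separated.

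Promoter sequences (250 bases before to 50 bases from the start, RefSeq, GRCm38.p6) were at hand for 8 of the 9 genes, all but Cryab. Those of Cryaa (chr17:31677681-31677980, plus strand), Cryba1 (chr11:77725244-77725543, minus strand) and Crybb2 (chr5:113070068-113070367, minus strand) are printed 5′ to 3′ because these genes had the highest mean levels among the 8 and moved together across libraries. Capitals mark the Maf half-site TGCTGA, searched on both strands (TCAGCA on the other).
Cryaa: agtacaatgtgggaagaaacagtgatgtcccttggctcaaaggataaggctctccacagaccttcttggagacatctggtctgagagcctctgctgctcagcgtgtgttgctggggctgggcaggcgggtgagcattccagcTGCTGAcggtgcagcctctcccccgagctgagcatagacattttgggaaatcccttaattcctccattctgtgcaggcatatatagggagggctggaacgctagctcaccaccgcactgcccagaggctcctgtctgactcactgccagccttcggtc
Cryba1: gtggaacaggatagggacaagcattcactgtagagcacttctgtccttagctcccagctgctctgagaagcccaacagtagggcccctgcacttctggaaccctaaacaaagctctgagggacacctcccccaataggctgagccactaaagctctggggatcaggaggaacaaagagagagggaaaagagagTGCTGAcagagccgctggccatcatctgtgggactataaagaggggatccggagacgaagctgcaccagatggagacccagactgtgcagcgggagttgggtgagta
Crybb2: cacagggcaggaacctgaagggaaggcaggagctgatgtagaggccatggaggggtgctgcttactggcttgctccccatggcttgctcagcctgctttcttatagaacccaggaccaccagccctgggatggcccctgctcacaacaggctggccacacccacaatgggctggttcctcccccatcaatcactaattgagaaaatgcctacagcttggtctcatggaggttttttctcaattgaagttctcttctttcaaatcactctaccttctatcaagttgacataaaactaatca

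The half-site was found at position -108 of Cryaa and at position -57 of Cryba1, counted from the RefSeq start, and was not found in the Crybb2 window. It was found in 7 of the 8 crystallin promoters, against 19.5% of 32851 promoters of the same length. The letters TATAAA on the strand of the gene were found in 4 of the 8 (Cryba1, Cryba2, Crybb1 and Crygs), against 8.32% of all promoters. Cryba4 held 3 half-sites, and the other 6 matching genes held 1 each. The crystallin windows held a median of 3.5 CG dinucleotides, from 0 in Crybb2 to 15 in Cryba2, against a median of 7 over all promoters. Such matches describe letters and not bound sites, and methylation of these windows was not analysed here.

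Library totals ran from 9627927 to 21108256 reads. Values are CPM, the reads of a gene divided by the library total and scaled to a common total, and 1 read was worth between 0.0474 CPM (tHet library 3) and 0.104 CPM (tHet library 2). A gene with 0 reads could thus lie at up to 3 reads, which is 0.312 CPM in tHet library 2 and 0.178 CPM in Tet tcKO library 1. Such limits and the intervals on read shares cover counting error only. Library 3 of Tet tcKO stood apart in that 28.7% of its reads fell on the ribosomal RNA gene CT010467.1, whereas the top gene of each of the other 8 libraries was mt-Rnr2, with 5.18% to 12.3%. Library 1 of Tet tcKO had the lowest rod transcript level, as shown by Gnat1, the rod transducin subunit, at 258 CPM against 1543 and 659 CPM in the other two. Tet3 was at 213, 268 and 223 CPM in Cre-, at 268, 288 and 155 CPM in tHet and at 108, 152 and 99.2 CPM in Tet tcKO, so the 3 Tet tcKO libraries were below all others. Tet1 and Tet2 overlapped between genotypes at the level of whole-gene reads, which also count exons outside the floxed ones.

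The 2 α-crystallin genes were among the 3 highest of the family and behaved differently from each other. Cryaa, the α-crystallin largely restricted to lens, measured 4.53, 15.0 and 29.9 CPM in Cre- libraries 1 to 3, 13.1, 1.35 and 16.1 CPM in tHet libraries 1 to 3 and 0.178, 7.97 and 8.73 CPM in Tet tcKO libraries 1 to 3. Its values overlapped between all genotypes, and within Tet tcKO they ran from 3 reads in library 1 to 145 reads in library 3. Cryab, the more widely expressed α-crystallin, measured 8.30, 10.9 and 12.7 CPM in Cre-, 5.54, 4.05 and 10.3 CPM in tHet and 2.55, 5.67 and 5.18 CPM in Tet tcKO. All 3 Tet tcKO libraries were below all 3 Cre- libraries for Cryab, tHet overlapped both, and the widest span within a genotype was 2.55-fold. Hspb2, which shares bases with Cryab, lay between 0 and 0.608 CPM and did not pass the filter on low values.

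Among the acidic β-crystallins, Cryba1 had the highest level. Cryba1, which encodes βA3/A1-crystallin, measured 2.77, 7.19 and 9.59 CPM in Cre-, 3.24, 1.04 and 3.84 CPM in tHet and 0.713, 3.16 and 2.65 CPM in Tet tcKO. Cre- libraries 2 and 3 were above the 7 other libraries, and Cre- library 1 lay among the values of the Cre-positive genotypes. Cryba2 measured 0.412, 1.15 and 2.30 CPM in Cre-, 1.58, 0 and 0.900 CPM in tHet and 0, 0.329 and 1.14 CPM in Tet tcKO. Cryba4 measured 0.530, 1.08 and 1.28 CPM in Cre-, 0.504, 0.312 and 0.711 CPM in tHet and 0, 0.395 and 0.482 CPM in Tet tcKO. For Cryba4 the highest Tet tcKO library was below the lowest Cre- library, although by less than the value of 1 read, and for Cryba2 all genotypes overlapped.

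Among the basic β-crystallins, Crybb2 had the highest level and followed Cryaa closely. Crybb2, the major basic β-crystallin of the lens, measured 5.71, 16.5 and 30.2 CPM in Cre-, 8.79, 0.727 and 16.6 CPM in tHet and 0.178, 6.92 and 6.80 CPM in Tet tcKO. Its genotypes overlapped, with 22.8-fold between the lowest and highest tHet library and 3 reads in Tet tcKO library 1 against 113 in library 3. Crybb3 measured 1.24, 2.54 and 6.41 CPM in Cre-, 2.52, 0.208 and 3.46 CPM in tHet and 0.119, 2.37 and 2.41 CPM in Tet tcKO. Crybb1 measured 0.648, 1.08 and 2.97 CPM in Cre-, 0.432, 0.415 and 1.37 CPM in tHet and 0.356, 0.395 and 1.08 CPM in Tet tcKO. Both genes overlapped between all genotypes, and within tHet and Tet tcKO the libraries differed by at most 3.31-fold for Crybb1, whereas Crybb3 was near 0 in tHet library 2 and Tet tcKO library 1.

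Crygs, which encodes the γS-crystallin that persists in the adult lens, measured 0.706, 2.74 and 2.57 CPM in Cre-, 1.51, 0.208 and 1.99 CPM in tHet and 0, 1.05 and 0.783 CPM in Tet tcKO. Cre- library 1 was below 2 of the Tet tcKO libraries, so the genotypes overlapped.

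**Figure D1:**
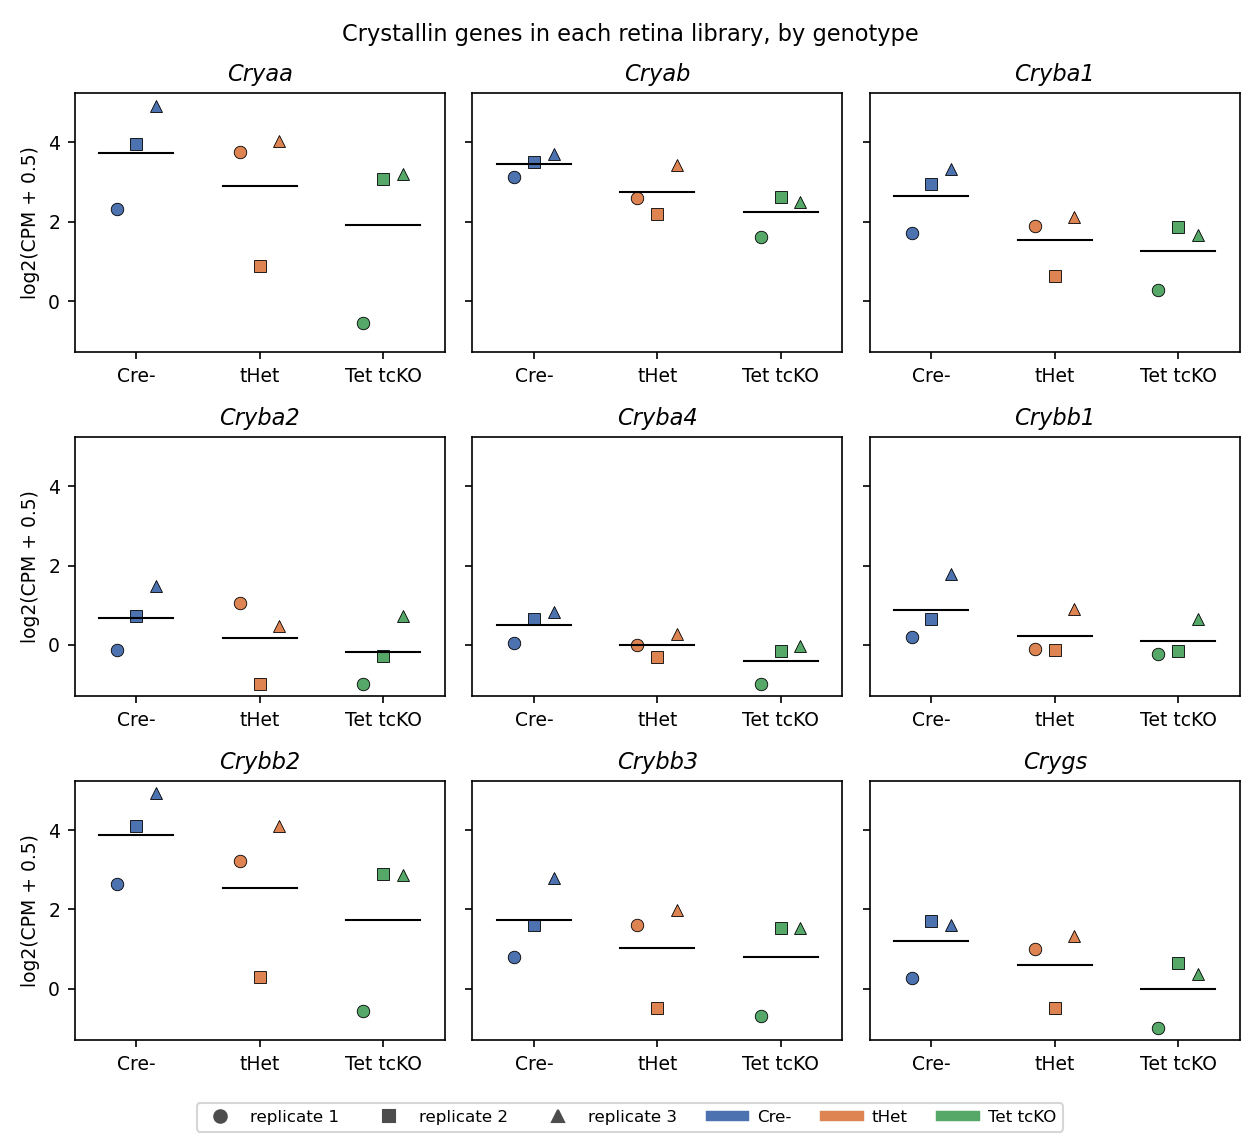
Level of each crystallin gene as log2(CPM + 0.5) in the 9 retina libraries, with 1 point per library (shape for the replicate number, colour for the genotype) and a bar at the mean of the 3 libraries of a genotype. In every panel Cre- library 1, tHet library 2 and Tet tcKO library 1 are the lowest of their genotype.

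Per kilobase of exon, Crybb2, Cryaa and Cryab were the highest of the family in Cre- retina, at 8.69 ± 6.09, 7.94 ± 6.14 and 7.18 ± 1.49 CPM per kb (SD, n = 3). Cryba1 followed at 4.09 ± 2.17 CPM per kb and Crygs at 2.29 ± 1.29 CPM per kb, and the other 4 lay between 1.08 CPM per kb (Cryba2) and 1.59 CPM per kb (Crybb1). Of all neighbours in this order, Cryab and Cryba1 differed by more than the larger of their SDs, and the other neighbours did not. In Tet tcKO the order began with Cryab at 3.02 ± 1.13 CPM per kb, then Cryaa at 2.71 ± 2.28 and Crybb2 at 2.30 ± 1.92 CPM per kb, and no pair of neighbours differed by more than the larger SD. In tHet the top 3 were Cryaa (4.90 ± 3.75 CPM per kb), Cryab (4.49 ± 2.22 CPM per kb) and Crybb2 (4.32 ± 3.94 CPM per kb), again with no pair of neighbours apart by more than the larger SD.

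Libraries of the same genotype differed widely in crystallin level, and the same library was low for every gene. All 9 genes had their lowest value within Cre- in library 1, all 9 had their lowest within tHet in library 2, and all 9 had their lowest within Tet tcKO in library 1. Across all libraries the lowest value was in Tet tcKO library 1 for 8 of 9 genes, the exception being Cryba2, at 0 in both that library and tHet library 2. The highest value was in Cre- library 3 for 8 of 9 genes, the exception being Crygs with Cre- library 2. Summed over the 8 genes other than Cryab, the level was 16.5, 47.3 and 85.2 CPM in Cre-, 31.7, 4.26 and 44.9 CPM in tHet and 1.54, 22.6 and 24.1 CPM in Tet tcKO. The low libraries were not those with few reads as a group. Tet tcKO library 1 (16840792 reads) and Cre- library 1 (16987479 reads) were the most deeply sequenced of their genotypes, and tHet library 2 (9627927 reads) was the shallowest of all.

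The spread within genotypes was measured as the residual SD of log2(CPM + 0.5) around the genotype means. It was 1.77 for Cryaa, 1.76 for Crybb2 and 1.22 for Crybb3, and of the 21330 tested genes only 11, 12 and 28, respectively, had a larger one. Cryba2 (0.918), Crygs (0.885) and Cryba1 (0.841) came next, then Crybb1 (0.650), Cryab (0.517) and Cryba4 (0.422). The median over the 9 genes was 0.885, against 0.340 over all tested genes and 0.407 over the 10173 tested genes whose mean level lay within the range of the 9, from 0.589 to 10.8 CPM. Cryab and Cryba4 were thus nearest to other genes of such level, and Cryaa and Crybb2 were near the end of the distribution. The mean of Cryba4, 0.589 CPM, was the lowest of the 9 and close to the added 0.5 CPM, which narrows the spread on this scale.

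**Figure D2:**
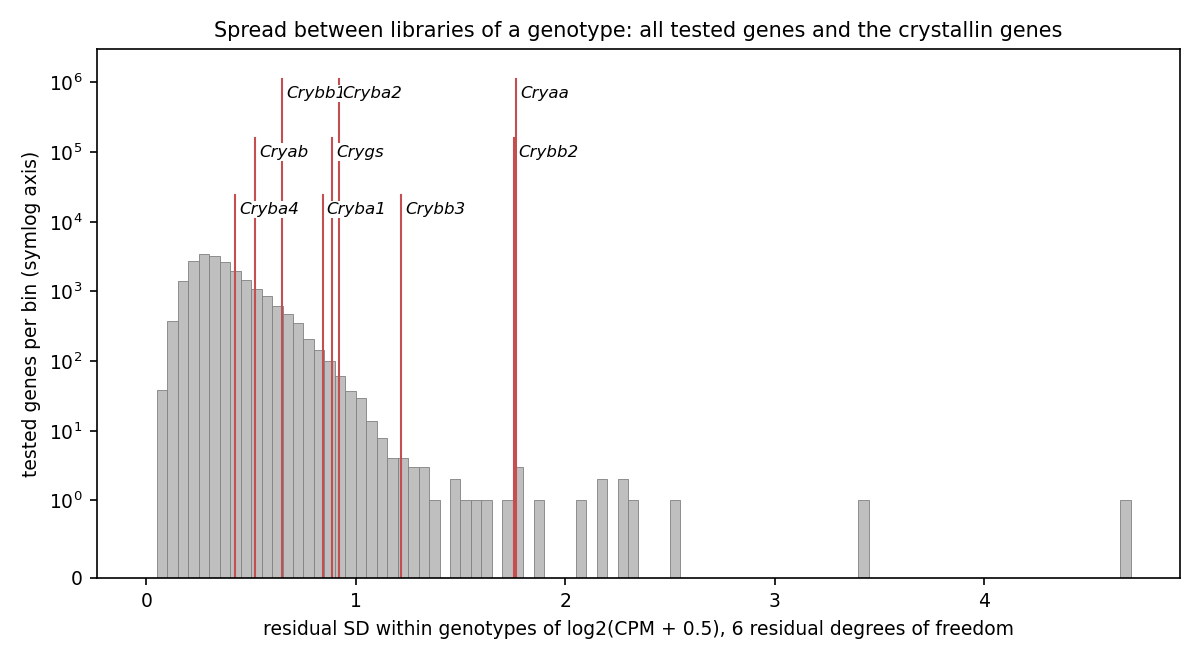
Histogram of the residual SD of log2(CPM + 0.5) within genotypes for the 21330 tested genes (bars, number of genes per bin on a symlog axis) with the 9 crystallin genes marked by vertical lines. Cryaa (1.77) and Crybb2 (1.76) lie far to the right of the median of all tested genes (0.340), and Cryba4 (0.422) lies closest to it.

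The genes also kept their proportions to each other to different degrees. Over the 36 pairs of crystallin genes, Pearson's r of log2(CPM + 0.5) across the 9 libraries had a median of 0.909 and ranged from 0.688 (Crybb1 with Crygs) to 0.985 (Cryaa with Crybb2). These points share libraries and 3 genotype means, so they are given as a description. Crybb2 made up 55.7% (exact 95% interval 48.0% to 63.3%), 52.4% (47.9% to 56.9%) and 50.2% (46.9% to 53.6%) of the reads of Cryaa and Crybb2 together in Cre- libraries 1 to 3. In tHet the share was 40.1% (34.6% to 45.9%), 35.0% (15.4% to 59.2%) and 50.8% (47.0% to 54.6%), and in Tet tcKO 3 reads of each gene were counted in library 1 (11.8% to 88.2%), with shares of 46.5% (39.8% to 53.2%) and 43.8% (37.7% to 50.1%) in libraries 2 and 3. The 2 genes therefore stayed near equal read numbers while their joint level moved, with tHet library 1 the furthest from equality among the deeply counted libraries. Cryab did not keep its share. It made up 33.4% (28.9% to 38.1%) of the reads of the 9 genes in Cre- library 1, 48.8% (37.4% to 60.2%) in tHet library 2 and 62.3% (49.8% to 73.7%) in Tet tcKO library 1, the low library of each genotype. In the other 6 libraries its share was between 13.0% and 20.0%.

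**Figure D3:**
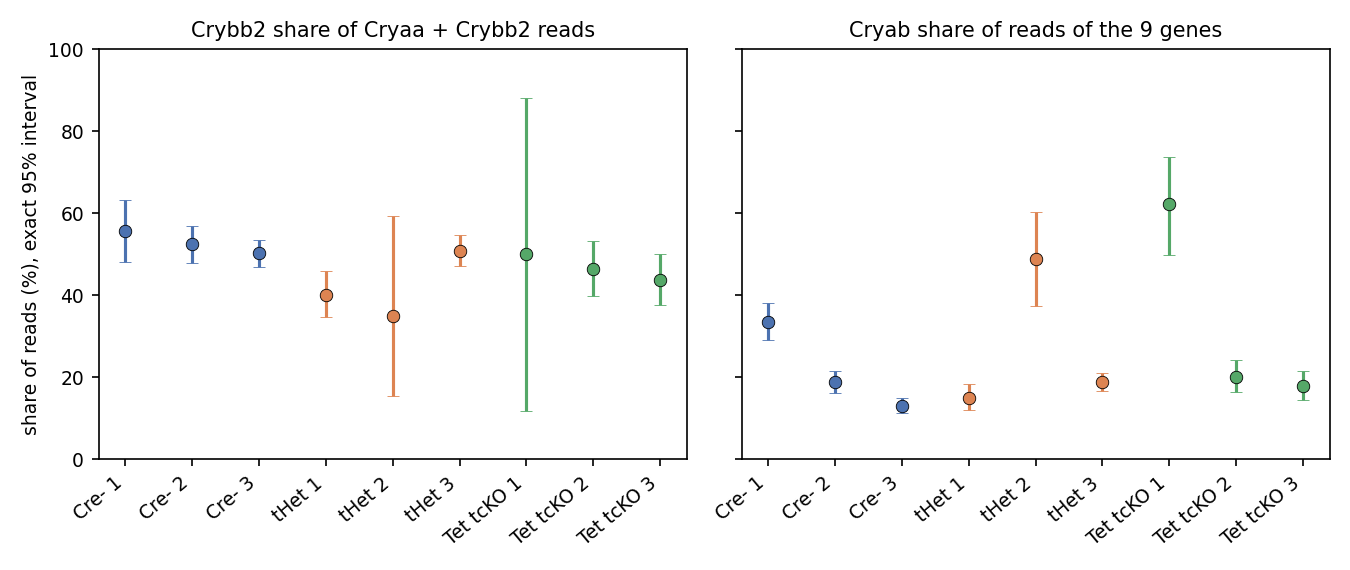
Share of Crybb2 in the reads of Cryaa and Crybb2 (left) and share of Cryab in the reads of the 9 crystallin genes (right), in percent, for each library, with exact 95% binomial intervals. The Crybb2 share lies between 35.0% and 55.7% throughout, whereas the Cryab share is highest in Tet tcKO library 1 (62.3%), tHet library 2 (48.8%) and Cre- library 1 (33.4%).

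To ask whether loss of the TET enzymes in retinal progenitors went with another crystallin level, Tet tcKO was first compared with Cre-. All 9 genes had a negative log2 fold change, as did 49.9% of all tested genes, with a median of -1.20 against 0.0012 over all tested genes. Without Tet tcKO library 1 the median of the 9 was -0.63. The 9 genes moved together across libraries (median pairwise r of 0.909). Their common sign, here and in the comparisons below, is therefore not 9 separate observations. The limma model on log2(CPM + 0.5), with all 9 libraries and Benjamini-Hochberg adjustment over the 21330 genes, called none of the 9 (a call needed an adjusted p under 0.01 and a change of 1 or more on the log2 scale in either direction), where 3.60% of all tested genes were called. At an unadjusted p under 0.05, 6 of the 9 had a negative difference, against 7.47% of all tested genes. With edgeR's quasi-likelihood test and with DESeq2 on the recovered reads 2 of the 9 reached that p. The share of all tested genes was not counted for these tools, so this count is not read as a result about the 9. Neither tool called any of the 9. Over all tested genes edgeR called 426 higher and 318 lower, and DESeq2 called 636 higher and 509 lower. The Tet tcKO libraries lay entirely below the Cre- libraries for 2 of the 9 genes, Cryab and Cryba4, against 9.60% of all tested genes.

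Over all tested genes, deviations from the genotype means correlated at 0.560, 0.352 and 0.148 for the same-numbered pairs of Tet tcKO and Cre-. Differently numbered pairs of these genotypes correlated at -0.465 to 0.226, and the labels do not say what a number marks. In each of the 3 same-numbered pairs all 9 crystallin genes were lower in Tet tcKO. For all 9 genes, library 1 was the lowest of both genotypes, and the genes moved together across libraries. The share of all tested genes lower in every pair was not counted, so this count is not read as a result about the 9. With the replicate number as a block in the limma model, 2 of the 9 genes were called lower, where 5.28% of all tested genes were called. All 9 reached an unadjusted p under 0.05 in this fit. The share of all tested genes at that p was not counted, so this too is not read as a result about the 9. The called genes were Cryab (adjusted p = 0.00488) and Crybb2 (adjusted p = 0.00429). With the block and the 6 libraries of this comparison alone, 5 were called, namely these genes with Cryaa, Cryba1 and Crygs, where 7.07% of all tested genes were called. That fit had 2 residual degrees of freedom and set the spread of every gene to the trend over all genes. With the block and robust variance moderation, which leaves genes of large spread nearly as they are, 1 was called, Cryab (adjusted p = 0.0014), and Crybb2 was not (adjusted p = 0.537). Of all 21330 tested genes, this last fit called 645 higher and 493 lower. The count of called genes thus depended on the block and on how the spread of the genes was estimated.

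Without the block, Cryab came nearest to the threshold, with a log2 fold change of -1.21 (SE 0.352, 95% interval -1.94 to -0.48), which is a 2.31-fold lower fitted level, and a limma adjusted p of 0.0423. Its adjusted p was 0.11 with edgeR and 0.0415 with DESeq2, and its log2 fold change was -0.89 with an adjusted p of 0.273 without Tet tcKO library 1. Crybb2 had the largest fitted difference, -2.16 (SE 0.829, 95% interval -3.88 to -0.43; adjusted p = 0.156), and Cryaa followed with -1.83 (SE 0.831, 95% interval -3.56 to -0.10; adjusted p = 0.270). Without Tet tcKO library 1 these differences were -1.01 and -0.59. The model also drew the large spread of these genes towards that of the others, from 1.77 to 1.02 for Cryaa. With robust variance moderation and no block, their adjusted p was 0.612 for Crybb2 and 0.705 for Cryaa. Cryba1 had a log2 fold change of -1.39 (SE 0.478; adjusted p = 0.0991) and Crygs of -1.20 (SE 0.496; adjusted p = 0.203). The remaining 4 genes lay between -0.94 (Crybb3) and -0.79 (Crybb1), with adjusted p from 0.152 (Cryba4) to 0.554 (Crybb3). Leaving out 1 library moved Crybb3 between -1.41 and -0.20, Cryba2 between -1.32 and -0.47, Crybb1 between -1.13 and -0.34, Cryba4 between -1.14 and -0.61 and Crygs between -1.66 and -0.70. Without Cre- library 1, the low control library, Cryba1 was called (log2 fold change -1.87, adjusted p = 0.00633), and without Cre- library 3, the high one, none was called and the adjusted p of Cryba1 was 0.421. Over all tested genes, 380 were called higher and 392 lower without Cre- library 1, and 251 and 172 without Cre- library 3.

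Tet tcKO was then compared with tHet, which carries the same transgene. All 9 log2 fold changes were again negative, against 55.7% of all tested genes, with a median of -0.39 against -0.06. The median of the 9 was 0.042 without Tet tcKO library 1, -0.60 and -0.62 without its libraries 2 and 3, and -0.96 and -0.14 without tHet libraries 2 and 3. None of the 9 was called by limma, edgeR or DESeq2, where limma called 3.00% of all tested genes, and none reached an unadjusted p under 0.05 with any of these tools, against 10.6% of all tested genes with a negative difference in limma. No crystallin gene had its Tet tcKO libraries all below the tHet libraries, against 9.68% of all tested genes. Cryaa had the largest difference, -0.99 (SE 0.831, 95% interval -2.72 to 0.74; adjusted p = 0.617), and Cryab had -0.49 (SE 0.352, 95% interval -1.23 to 0.24; adjusted p = 0.534). These intervals are wide enough to hold a decrease of more than 2 on the log2 scale for Cryaa as well as a small increase. Leaving out Tet tcKO library 1 turned the sign for 6 genes, Cryaa, Cryba1, Cryba2, Crybb1, Crybb2 and Crybb3.

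For tHet against Cre-, which differ in 1 copy of each Tet gene, in the transgene and in the breeding line, all 9 log2 fold changes were negative as well, against 41.8% of all tested genes, with a median of -0.70 against 0.06. The median of the 9 was -0.36 without Cre- library 3, and -0.23 and -1.06 without tHet libraries 2 and 3. None was called by limma, edgeR or DESeq2, where limma called 0.0422% of all tested genes. Cryba1, at -1.11 (SE 0.478, 95% interval -2.11 to -0.12), was the only one of the 9 with an unadjusted p under 0.05 in limma (adjusted p = 0.9998), against 0.966% of all tested genes, and the count was 1 with DESeq2 and 0 with edgeR. For no crystallin gene did the tHet libraries all lie below the Cre- libraries, against 5.37% of all tested genes. Leaving out tHet library 2 turned the sign for Cryaa, Cryba2 and Crybb3. The 3 comparisons share their libraries in pairs, so a low or high library enters 2 of them and their common direction is not independent.

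**Figure D4:**
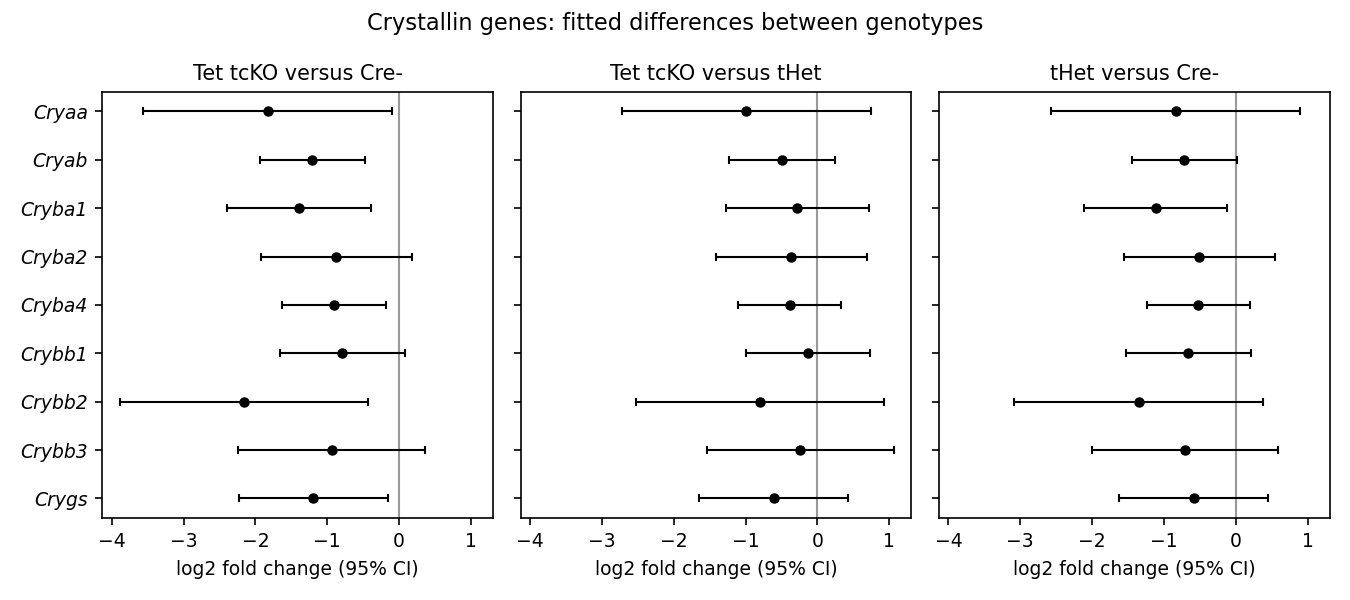
Fitted log2 fold change of each crystallin gene in the 3 comparisons (points, limma on log2(CPM + 0.5)) with 95% confidence intervals. All points lie below 0, and the intervals of Cryaa and Crybb2 are the widest in each panel.

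Taken as a sum, the γ-crystallin genes of the Cryga to Crygf cluster, which are expressed mainly in lens fibre cells, were lowest in the same library of each genotype as the 9 genes. Their summed level was 2.59, 4.84 and 12.2 CPM in Cre-, 4.75, 0.312 and 10.4 CPM in tHet and 0, 4.88 and 3.43 CPM in Tet tcKO. These low libraries held 44 reads in Cre- library 1, 3 reads in tHet library 2 and 0 reads in Tet tcKO library 1. Cryga alone was lowest within Cre- in library 2, at 0.0636 CPM against 0.118 CPM in library 1. Crygn, outside the cluster, was highest of its genotype in Cre- library 1 (0.294 CPM) and Tet tcKO library 1 (0.356 CPM). Cryga and Crygn are named after their values were seen. With Crygn, 5 of these 7 other lens crystallins passed the filter, and none of the 5 was called in any comparison without a block. In Tet tcKO against Cre- all 5 had negative log2 fold changes with a median of -0.60, including Crygd at -1.20 (adjusted p = 0.356) and Crygc at -0.55 (adjusted p = 0.788). With the replicate block and the 6 libraries of this comparison alone, Crygd and Crygb (log2 fold change -1.01) were called lower, with adjusted p of 0.00108 and 0.00958.

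Of 15 marker genes of lens cells, 6 passed the filter on low values and none was called in any comparison. Their summed level ranged from 7.53 to 16.1 CPM in Cre-, from 6.86 to 17.9 CPM in tHet and from 7.90 to 10.4 CPM in Tet tcKO. Bfsp1, which encodes the beaded filament protein filensin, was lowest in the same 3 libraries, at 1.12, 2.61 and 4.93 CPM in Cre-, 1.73, 1.04 and 5.45 CPM in tHet and 1.37, 3.29 and 2.71 CPM in Tet tcKO. Lgsn, the lens glutamine synthetase-like gene, was also lowest in them, at 0.177, 0.573 and 1.82 CPM in Cre-, 0.648, 0.312 and 3.41 CPM in tHet and 0, 1.19 and 0.602 CPM in Tet tcKO. Bfsp2, the partner of filensin, had its lowest value in the same library in Cre- (0.942 CPM) and tHet (0.519 CPM) but not in Tet tcKO, where library 2 was lowest at 0.857 CPM. Mip, the major membrane channel of lens fibres, did not follow: it stayed between 1.51 and 2.7 CPM, with tHet library 2 the highest. Apart from Bfsp1 and Hsf4, the 2 most abundant of the list, and Lenep, these markers are named after their values were seen. Hsf4, a heat shock factor expressed in lens and retina, was between 1.02 and 3.12 CPM. Its Tet tcKO libraries (1.90, 2.37 and 1.02 CPM) all lay below its Cre- libraries (2.94, 3.12 and 2.50 CPM), as in 9.60% of all tested genes. Lenep was at 0 reads in all 9 libraries, Lim2 and Foxe3 were each above 0 in 1 library, and Gja3, Birc7, Dnase2b, Grifin and Lctl did not exceed 0.379 CPM. Sox1 followed no such order, with its highest value, 0.594 CPM, in Tet tcKO library 1. The part of lens RNA in the level of the crystallin genes was not tested.

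**Figure D5:**
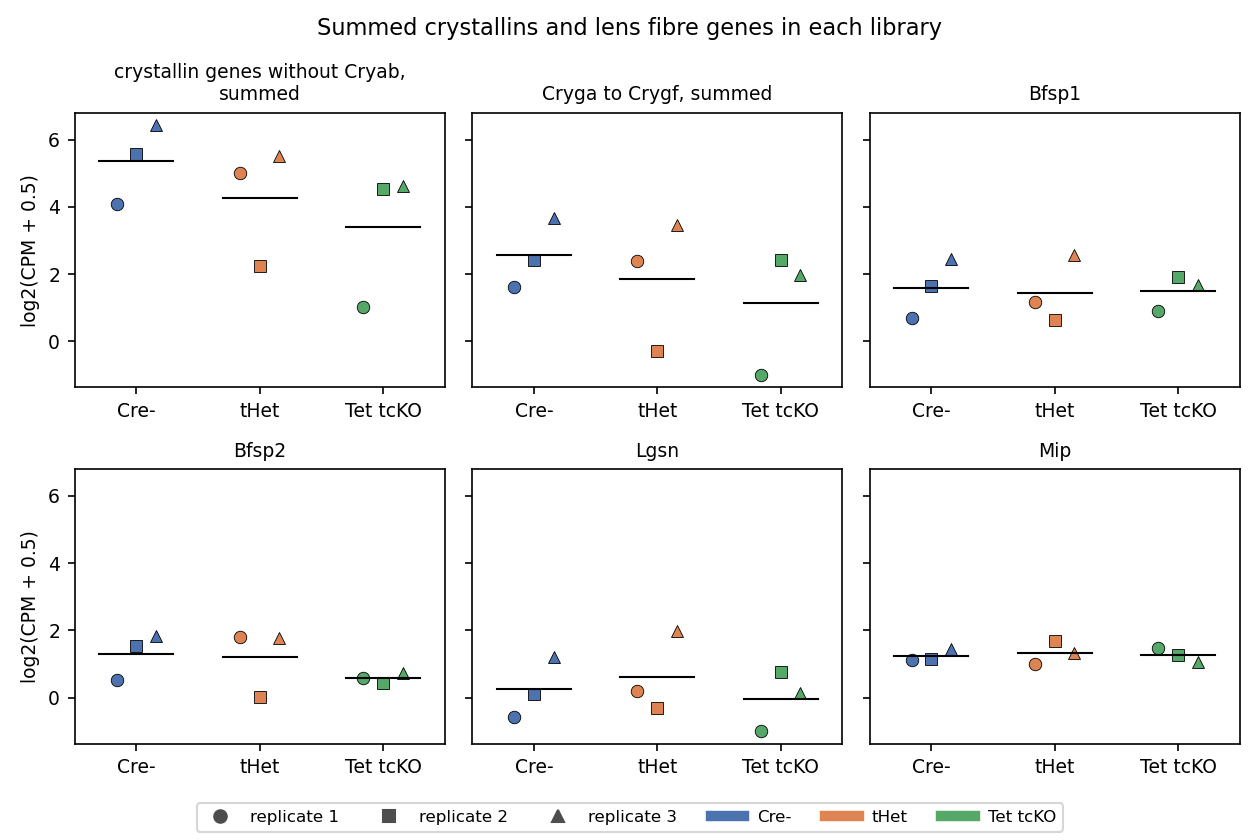
Level as log2(CPM + 0.5) of the 8 crystallin genes other than Cryab summed, of Cryga to Crygf summed and of 4 lens fibre genes in each library, with points and bars as for the single crystallin genes. The first 2 panels, Bfsp1 and Lgsn have their lowest point of each genotype in Cre- library 1, tHet library 2 and Tet tcKO library 1, and Mip does not.

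Of 6 tested genes that carry the crystallin name without being lens structural genes, 2 were called in Tet tcKO against Cre-, 1 in each direction, and the median log2 fold change of the 6 was 0.036, with 3 positive and 3 negative. Crym, which encodes a thyroid hormone binding protein (μ-crystallin), rose from 22.5, 21.6 and 21.7 CPM in Cre- to 97.4, 92.8 and 79.2 CPM in Tet tcKO, with tHet at 21.1, 26.9 and 25.8 CPM. Its log2 fold change was 2.01 (SE 0.208) against Cre- and 1.85 (SE 0.208) against tHet, and both passed the limma test (adjusted p = 2.52e-06 and 9.51e-06). Crybg3, a βγ-crystallin domain gene, fell from 57.0, 76.2 and 69.6 CPM in Cre- to 19.8, 45.0 and 26.3 CPM in Tet tcKO (log2 fold change -1.21, SE 0.256, limma adjusted p = 0.00438). In tHet it was at 63.9, 69.7 and 54.7 CPM, and against tHet it was not called (log2 fold change -1.11, limma adjusted p = 0.0103). The other 4 tested genes of this group of 7 (Crybg1, Cryz, Cryzl1 and Cryl1) were not called in any comparison. In both Crym and Crybg3 the 3 Tet tcKO libraries lay apart from all 3 Cre- libraries. They also did for Cryab and, by less than the value of 1 read, for Cryba4. Of all tested genes, 9.60% had their Tet tcKO libraries entirely below the Cre- libraries. The share with Tet tcKO entirely above Cre-, as for Crym, was not counted.

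Regulators of crystallin genes and heat shock genes were read from the same fit. Of 12 regulators, 9 were tested and 1 was called in Tet tcKO against Cre-: Prox1, a homeobox gene also expressed in horizontal and bipolar cells, at 312, 269 and 323 CPM in Cre- and 81.5, 193 and 104 CPM in Tet tcKO (log2 fold change -1.35, SE 0.262, limma adjusted p = 0.00229). In tHet it was at 224, 274 and 225 CPM, and against tHet neither Prox1 (log2 fold change -1.02, limma adjusted p = 0.0213) nor another regulator was called. Pax6, the most abundant of them, had a log2 fold change of 0.52 against Cre- (adjusted p = 0.291). Among the small heat shock protein genes other than the α-crystallins, 5 of 8 were tested and none was called, with a median log2 fold change of 0.01 in Tet tcKO against Cre- (Hspb6 -0.33, Hspb11 0.0089). Of 11 genes of the heat shock response, all tested, none was called in any comparison, and the 2 most abundant had log2 fold changes of -0.59 (Hsp90aa1) and 0.16 (Hspa8).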

How the data were processed

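Ribosomal RNA-depleted stranded libraries (SMARTer Stranded Total RNA) from P21 whole retina, 9 in a single sequencing pool, were processed by the authors with Trim Galore 0.6.7, STAR 2.7.0f on mm10, SAMtools 1.9, HTSeq 0.11.2 and edgeR 4.2.2. The authors deposited CPM values per gene and library, and no fold changes were used. The annotation release and strand setting of counting were not given in the sources used here. Because 100% of values were whole multiples of 1 read (tolerance 0.02 reads), reads and library totals were recovered.

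Genes reaching 0.5 CPM in at least 3 of 9 libraries were tested on log2(CPM + 0.5) with limma 3.58.1 (trend), all 9 libraries and no covariate. This replaced the authors' count model because the deposited unit is CPM, so fold changes of low genes are understated. Calls needed a Benjamini-Hochberg adjusted p under 0.01 and a change of 1 or more on the log2 scale. Alternatives were edgeR 4.0.16 and DESeq2 1.42.0 on the recovered reads, other pseudocounts, filters and scalings, a replicate block, the 6 libraries of a comparison alone and leaving out each library. The labels number the libraries of each genotype without saying what a number marks. Deviations of the 3 same-numbered pairs from the genotype means, over the tested genes, correlated at 0.148 to 0.560 between Tet tcKO and Cre-. For tHet they correlated at -0.350 to 0.356 with Cre- and at -0.300 to 0.273 with Tet tcKO. Differently numbered pairs of all genotypes ran from -0.571 to 0.502. Because the number was not known to pair animals, the main fit had no block. After seeing the data, robust variance moderation, leaving out CT010467.1, and the block with robust moderation or with the 6 libraries alone were added. The fits were tested on simulated data. The genes, lists and markers were chosen with earlier results of these data known. The text names every crystallin gene, and of each other list up to 4 called genes, the 2 most abundant and those at 0; the text says where others were added, and a few list members are not reported here. With 3 against 3 libraries an exact permutation test cannot go below p = 0.1, so none was run.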

Additional observations from a re-analysis of the deposited data

How the results depend on the processing

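Of 618 recomputed values for the crystallin genes, 14 changed sign, all of them when 1 library was left out; none of the 375 from other alternatives did. Leaving out 1 library gave log2 fold changes, in Tet tcKO against tHet, of -2.0 to 0.24 for Cryaa, -0.74 to 0.22 for Cryba1, -0.96 to 0.073 for Cryba2, -0.42 to 0.21 for Crybb1, -1.92 to 0.35 for Crybb2 and -1.0 to 0.50 for Crybb3, and, in tHet against Cre-, of -1.54 to 0.17 for Cryaa, -0.95 to 0.083 for Cryba2 and -1.18 to 0.059 for Crybb3. The count of crystallin genes called in Tet tcKO against Cre- was 0 to 1 when 1 library was left out (1, Cryba1, without Cre- library 1), 1 at an adjusted p under 0.05 (Cryab), 1 with the 6 libraries alone (Crybb2), 2 with the replicate block (Cryab and Crybb2), 5 with the replicate block and the 6 libraries alone, and 1 with the replicate block and robust moderation (Cryab). Over all tested genes, an adjusted p under 0.05 called 642 higher and 514 lower, and the 6 libraries alone called 530 higher and 450 lower. Without Cre- library 1, 380 were called higher and 392 lower of 21229 tested genes. The standard error of Crybb2 was 0.488 with the 6 libraries and 0.525 with the block, against 0.829, its own spread being drawn further towards that of other genes. The block called none of the 9 in the comparisons of tHet with Cre- and of Tet tcKO with tHet. What the replicate number marks is not known for any genotype. Over all tested genes in Tet tcKO against Cre-, 830 were called higher and 677 lower with the block and the 6 libraries alone, against 434 and 334, and in tHet against Cre- the block called 38 higher and 2 lower, against 9 in all. Robust moderation and the count models, without a block, called none. Leaving out CT010467.1 and rescaling called none of the 9, moved the median of all genes in Tet tcKO against Cre- to 0.14 and gave 613 higher and 222 lower calls against 434 and 334; with all detected genes tested, 255 higher and 162 lower genes were called. Cryba2, Cryba4 and Crygs had libraries at 0 reads.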

Other observations

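Ranked by Pearson's r of log2(CPM + 0.5) with the summed 8 crystallin genes other than Cryab, among tested genes outside the family with a mean of at least 1 CPM, the first 8 were Tnni3 (0.936), Khdrbs3 (0.936), Gas5 (0.933), Syce2 (0.904), Dnaic1 (0.895), Ccsap (0.891), Utp3 (0.887) and Srd5a1 (0.860). With Cryab alone they were Ip6k3 (0.941), Khdrbs3 (0.938), Tnni3 (0.932), Ccsap (0.923), Tnnt1 (0.922), Dnaic1 (0.892), Parp3 (0.888) and Cep112 (0.884). These are descriptions over 9 libraries of 3 genotypes, and the genes were the highest of all that were ranked. Khdrbs3, an RNA-binding protein gene, ran from 66.5 CPM in Tet tcKO library 1 to 131 CPM in tHet library 3. Gas5, a non-coding RNA that hosts small nucleolar RNAs, ran from 19.8 CPM in Tet tcKO library 1 to 33.8 CPM in tHet library 3. Both spans are small beside those of Cryaa and Crybb2. Tnni3 and Tnnt1, which encode troponin subunits of muscle, were at 0.356 to 1.55 CPM and 10.4 to 39.8 CPM.

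Markers of other cells and neighbouring tissues are given as values beside the crystallin genes, and their part in the crystallin levels was not tested. Of 7 listed ciliary body markers, all tested, 5 were called higher in Tet tcKO than in Cre- (Col9a1, Col9a2, Zic1 and Optc with the smallest adjusted p), and their summed level was 51.0 to 79.7 CPM in Cre-, 190 to 283 CPM in tHet and 305 to 376 CPM in Tet tcKO. In tHet against Cre- 2 were called higher, Optc and Col9a1, and all 7 had their 3 tHet libraries above the 3 Cre- libraries, and in Tet tcKO against tHet 1 was called higher, Col9a2. The share of all tested genes with tHet entirely above Cre- was not counted. Col9a1, the most abundant, was at 34.1, 34.3 and 53.2 CPM in Cre- and at 207, 218 and 212 CPM in Tet tcKO. Of 8 tested pigment epithelium markers, 1 was called lower in Tet tcKO than in Cre- (Rpe65) and 4 lower than in tHet (Rpe65, Ttr, Dct and Tyr), with sums of 36.8 to 151 CPM in Cre-, 130 to 207 CPM in tHet and 39.3 to 53.3 CPM in Tet tcKO. Of 8 rod markers, 7 were called lower in Tet tcKO than in either other genotype (Nr2e3, Nrl, Cnga1 and Pde6b with the smallest adjusted p). Gnat1 was at 6853, 6738 and 5217 CPM in Cre- and at 258, 1543 and 659 CPM in Tet tcKO. Of 8 Müller glia markers, Apoe was called higher and Glul and Rlbp1 lower in Tet tcKO than in Cre-. In Tet tcKO against tHet, 1 was called higher and 3 lower, Car14 among the lower. Of 7 retinal ganglion cell markers, with Nefl and Pou4f1 the most abundant, Sncg was called lower in Tet tcKO than in tHet. None of the 6 astrocyte markers (led by Gfap and Slc14a1), the 5 blood cell markers (led by Hba-a1 and Alas2) and the 4 tested oligodendrocyte markers (led by Mbp) was called without a block. With the replicate block, the blood genes Hba-a1 and Hbb-bs (log2 fold changes -1.51 and -1.41), the pigment epithelium gene Ttr (-1.47), Car14 (-1.26) and Sncg (-1.29) were also called lower in Tet tcKO than in Cre-. The blood sums were 32.8 to 51.5 CPM in Cre-, 25.6 to 52.6 CPM in tHet and 15.7 to 32.9 CPM in Tet tcKO. A library with few crystallin reads was not low in all of these lists, since Tet tcKO library 1 had the most Gfap of its genotype, 113 CPM against 45.3 and 34.9 CPM.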
